A study of Mus musculus with 6 samples.

Results

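The genes described here are the Wnt ligands, their receptors and their modulators in the ganglionic eminences of the mouse embryo, the ventral telencephalic zones that generate GABAergic neurons. The rule that picks them uses gene symbols and no measured value, though it was set with earlier results of these data known. All 19 Wnt ligand genes and all 10 Frizzled genes were taken, with Lrp5, Lrp6, Ror1, Ror2, Ryk, Lgr4 to Lgr6, 14 secreted modulators (Sfrp1, Sfrp2, Sfrp4, Sfrp5, Dkk1 to Dkk4, Rspo1 to Rspo4, Wif1 and Notum) and 6 nuclear or feedback genes (Axin2, Lef1, Nkd1, Tcf7, Tcf7l1 and Tcf7l2). That made 57 genes of the 55416 in the table of counts. RNA was sequenced from ganglionic eminences at E13.5 (embryonic day) in 3 libraries from wild-type embryos and 3 from Dlx1/Dlx2 double knockout embryos. The comparison thus asked what differed without this pair of homeodomain transcription factor genes. The labels give no other allele or treatment and do not describe the deleted segments. They do not say which embryos were littermates, nor whether a library came from 1 embryo or several. The p-values therefore measure the spread between these libraries, which may be in part technical.

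Wnt proteins are lipid-modified secreted ligands that bind Frizzled receptors. With the co-receptors Lrp5 or Lrp6 they stabilise beta-catenin, which enters the nucleus and acts with TCF/LEF factors on target genes; with Ror1, Ror2 or Ryk they can act without beta-catenin. R-spondins strengthen the response through Lgr receptors, whereas Sfrp, Dkk, Wif1 and Notum proteins restrain it. In the embryonic telencephalon the pathway is best known at the cortical hem, a dorsomedial source of Wnt and BMP ligands, and in progenitors that it helps to keep dividing.

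Library totals ran from 56618090 to 70114173 counts, and 3 counts, taken as the floor, equalled between 0.0428 and 0.053 CPM (counts scaled by library size). Dlx1 stood at 438.9 ± 6.12 CPM (SD, n = 3) with both genes intact and 81.6 ± 10.8 in the double knockout, and Dlx2 at 295.7 ± 16.1 and 8.68 ± 1.99, so every library matched its label. The summed level of 5 ganglionic eminence markers (Gsx2, Nkx2-1, Lhx6, Lhx8 and Six3) was 420.1 to 445 CPM in wild-type libraries and 350.1 to 496.5 in double knockout libraries; edgeR's quasi-likelihood test found Lhx6 and Lhx8 lower and Gsx2 and Nkx2-1 higher in the latter. The summed choroid plexus markers stood at 32.1 CPM in wild-type replicate 1 and between 0.592 and 1.20 in the other 5 libraries; Ttr, the defining marker, had 1540 reads in that library and 0 to 10 elsewhere. The summed markers of the diencephalon and hypothalamus were 109 and 108 CPM in double knockout replicates 1 and 2, and between 59.5 and 70.5 in the other 4 libraries, with Nkx2-4 and Rax at 3 reads or fewer everywhere. Wild-type libraries had more summed pallial signal (899 to 922 against 703 to 734 CPM) and neuronal signal (5137 to 5603 against 4146 to 4876), and less radial glial signal (1563 to 1727 against 1891 to 2072) and oligodendrocyte precursor signal (18.2 to 23.3 against 56.5 to 72.5). Of the marker genes on these lists that were tested, 1 of 7 pallial (Neurod2, lower), 1 of 6 neuronal (Snap25, lower), 1 of 6 radial glial (Hes5, higher) and 4 of 4 oligodendrocyte precursor genes (Sox10, Pdgfra, Olig1 and Gpr17, higher) passed the same test in the double knockout. The part of these markers in the results below was not tested.

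Of the 57 genes, 44 had enough reads to be tested. The test found 2 of them, with Wnt7a lower and Fzd5 higher in the double knockout, or 4.55% of those tested, beside 2.68% of all 23628 tested genes (634 genes; 317, or 1.34%, in each direction). DESeq2, an alternative count model, called 8 of the 57 Wnt genes, beside 5.3% of all genes to which it gave an adjusted p. The 57 may include genes to which it gave none. At an unadjusted p under 0.05 in edgeR there were 14 of the 44 tested Wnt genes, 10 higher and 4 lower, and 3149 of all 23628 tested genes, or 13.3%. The 3 libraries of 1 group all lay above the 3 of the other for 15 of the 44, 10 of them higher in the double knockout and 5 lower; that is 34.1%, beside 19.5% of all tested genes (9.3% higher and 10.2% lower). Among genes that averaged 1 CPM or more the shares were 37.5% (12 of 32) and 22.4%. The median log2 fold change (double knockout over wild type) was 0.11 for the 44 genes and 0.00 for all tested genes, and the median size without sign was 0.20 and 0.13. The estimates were small: only Dkk1 and Rspo1, both low genes that did not pass the test, had fitted log2 fold changes past 1. In bulk tissue, fewer cells that express a gene and less RNA per cell cannot be told apart.

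**Figure D1:**
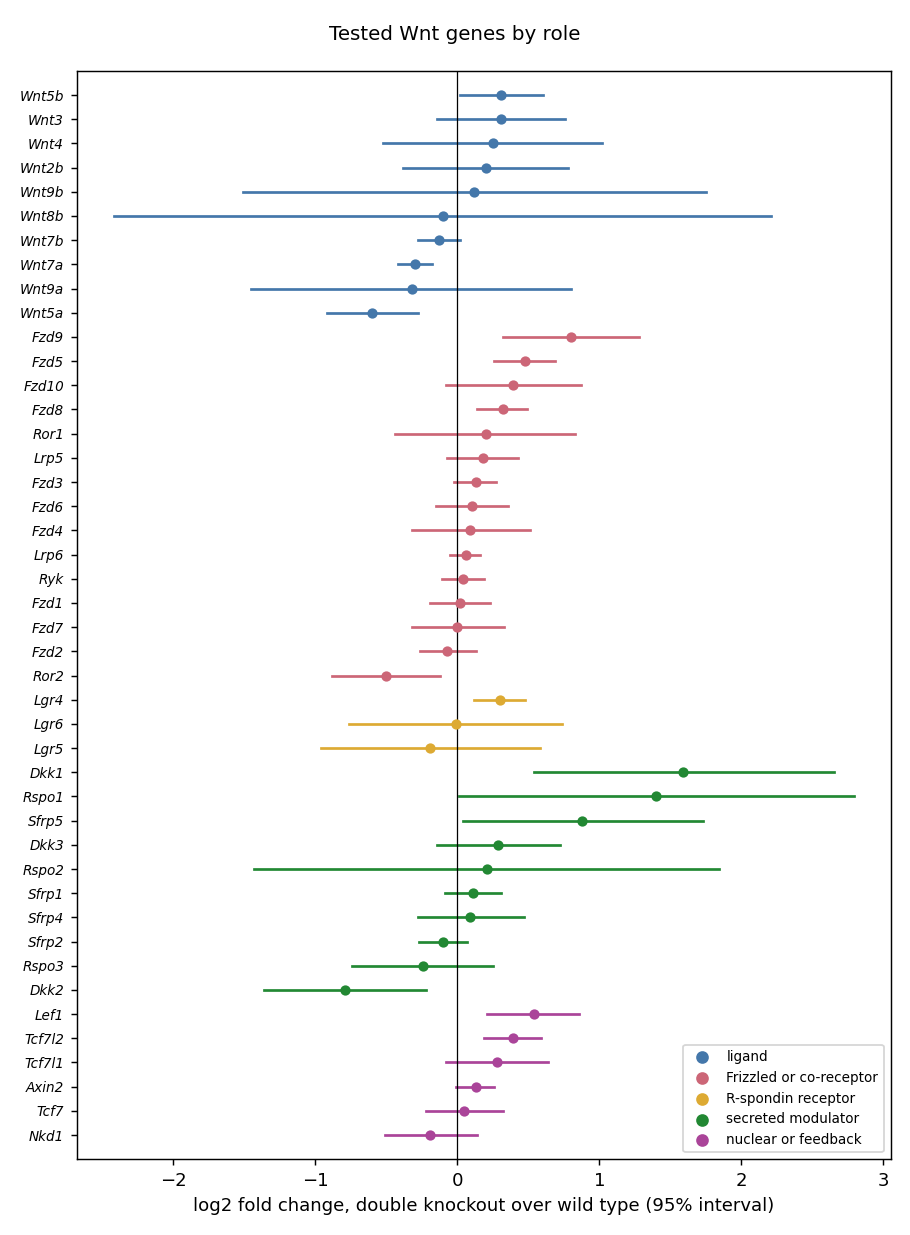
Log2 fold change (double knockout over wild type) of the 44 tested Wnt genes with its 95% confidence interval, grouped by role, from edgeR's quasi-likelihood fit. Wnt7a at -0.30 and Fzd5 at 0.48 are the 2 genes past the adjusted threshold of 0.05, and the widest intervals belong to low genes such as Wnt8b.

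The other 13 genes were too low to test, with at most 17 reads in any library. They were 9 ligands (Wnt1, Wnt2, Wnt3a, Wnt6, Wnt8a, Wnt10a, Wnt10b, Wnt11 and Wnt16) and 4 modulators (Dkk4, Notum, Rspo4 and Wif1). Wnt8a and Wnt10b had 3 reads or fewer in every library. The highest single count, 17 reads, was for Wnt3a, a ligand that marks the cortical hem, in double knockout replicate 1; the gene had 4 and 0 reads in the other double knockout libraries and 0, 0 and 1 in the wild type. Several silent or faint ligand genes are annotated as neighbours of another ligand gene: Wnt10b beside Wnt1, Wnt6 beside Wnt10a, Wnt3a beside Wnt9a, and Wnt9b beside Wnt3. Of those 8 genes, only Wnt3 had a mean above 1 CPM.

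Levels per kilobase of annotated exon allow genes to be ranked against one another. Sfrp1, a secreted decoy that binds Wnt proteins, was the most abundant at 46.8 CPM per kb over all libraries, ahead of the receptor Fzd3 at 42.1, Fzd8 at 23.4 and Fzd2 at 21.9. Next came Ryk (16.9), Wnt7b (16.7), Wnt7a (14.8), Fzd1 (14.8) and Lrp6 (11.8), and no other gene reached 10 CPM per kb. Lrp6 exceeded its paralog Lrp5, which stood at 3.86. At the low end of the tested genes were Lgr5 (0.0311), Wnt9b (0.0323) and Lgr6 (0.0470).

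**Figure D2:**
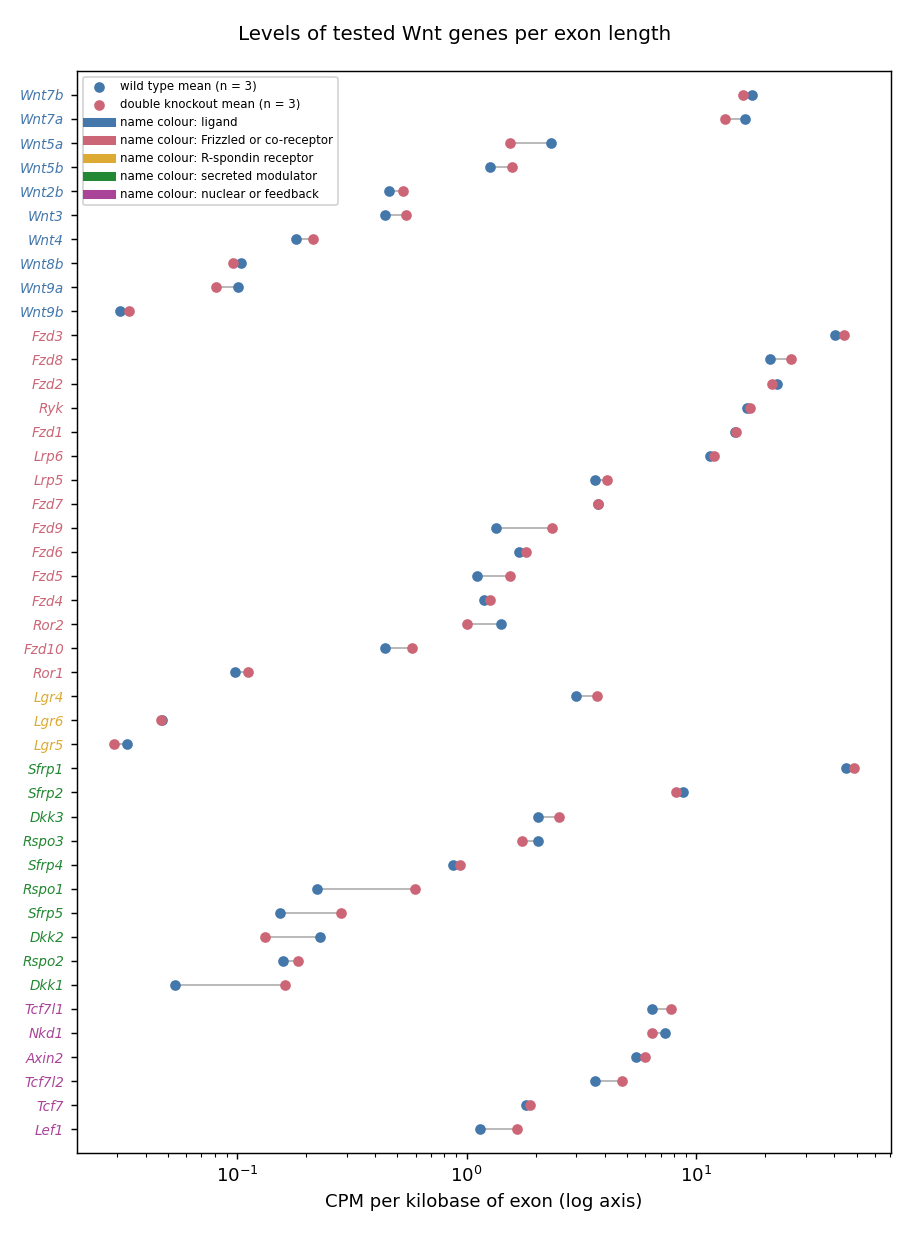
Mean level in CPM per kilobase of exon (log axis) of the 44 tested Wnt genes in wild-type and double knockout libraries (n = 3 each), sorted by level within each role. Sfrp1 and Fzd3 are the highest genes, Wnt7b and Wnt7a stand far above every other ligand, and most pairs of points nearly coincide.

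Among ligands, signal came almost wholly from Wnt7b and Wnt7a. Per length, they made up 45.0% ± 0.749 and 42.1% ± 1.38 (SD, n = 3) of the summed level of the 19 ligand genes in the wild type, and 46.9% ± 1.70 and 39.0% ± 1.77 in the double knockout. Wnt5a followed with 5.98% ± 1.10 and 4.52% ± 0.284, and Wnt5b with 3.27% ± 0.395 and 4.64% ± 0.340; each other ligand was under 2%. The summed level was 38.9 ± 1.89 CPM per kb in the wild type and 34.1 ± 0.975 in the double knockout. The highest double knockout library, at 35.1, lay below the lowest wild-type library, at 37.0; the sum was not tested.

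Wnt7a, a ligand made by neural progenitors that also acts on brain endothelium through Adgra2 and Reck, fell in the double knockout. Its level, in replicate order here and below, was 52.5, 53.4 and 49.9 CPM in the wild type and 41.9, 41.5 and 42.9 in the double knockout. The groups did not overlap, and the gap between them was wider than the spread within either. The fitted log2 fold change came to -0.30 (SE 0.0529, 95% interval -0.42 to -0.18, adjusted p = 0.0213 by edgeR's quasi-likelihood test), so the wild type was 1.23-fold higher. Leaving out 1 library at a time gave log2 fold changes between -0.33 and -0.28, but the call was kept only without double knockout replicate 3 (adjusted p = 0.0191, edgeR); the other 5 omissions gave 0.0530 to 0.105. With the summed Y-linked level of each library as a covariate, a stand-in for sex, the edgeR adjusted p was 0.0692.

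Wnt7b, its paralog and the most abundant ligand per length, measured 91.2, 86.1 and 80.0 CPM in wild-type libraries and 76.9, 83.9 and 74.0 in double knockout libraries. The groups overlapped: double knockout replicate 2 exceeded wild-type replicate 3. Its log2 fold change was -0.13 (SE 0.0662, adjusted p = 0.453 in edgeR's quasi-likelihood test, 95% interval -0.28 to 0.02). Whether the changes of Wnt7a and Wnt7b differ was not tested.

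Wnt5a, a ligand known for signalling through Ror receptors, measured 22.3, 14.7 and 17.7 CPM in the wild type and 11.9, 11.7 and 12.5 in the double knockout. All 3 double knockout libraries were lower and close together, while the wild-type libraries were widely spread, with replicate 1 highest. The log2 fold change of -0.60 (SE 0.141) did not pass edgeR's quasi-likelihood test (adjusted p = 0.0718). Wild-type replicate 1 carried part of the difference: without it the value was -0.43 (adjusted p = 0.174, edgeR). Without wild-type replicate 2 the value was -0.74 and passed (adjusted p = 0.0291, edgeR). Wild-type replicate 1 was also the library with choroid plexus signal, and the part of that signal in the Wnt5a result was not tested. DESeq2 on all libraries gave the same -0.60 with an adjusted p of 0.00114. An annotated opposite-strand transcript, Gm2670, shares 358 exon bases with Wnt5a and had 57, 42 and 63 reads in wild-type libraries against 24, 13 and 20 in the double knockout (log2 fold change -1.55, adjusted p = 0.0310, edgeR). Reads of such overlapping pairs cannot be told apart unless counting used strand, which the sources used here do not give.

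Wnt5b, the paralog of Wnt5a, lay on the other side, with 3.09, 3.76 and 3.26 CPM in the wild type and 3.96, 4.18 and 4.43 in the double knockout. The groups did not overlap but the estimate of 0.31 did not pass the test (adjusted p = 0.332, edgeR's quasi-likelihood test). The remaining tested ligands, Wnt2b, Wnt3, Wnt4, Wnt8b, Wnt9a and Wnt9b, overlapped between groups, with log2 fold changes between -0.32 (Wnt9a) and 0.31 (Wnt3).

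The stretch upstream of the start of Wnt7a is shown with that of Fzd5, as the pair of genes that passed the test. These are the 250 bases before the annotated start, 5′ to 3′ on the gene's own strand, from RefSeq on GRCm38.p6, an older build than the GRCm39 that the submitters' processing notes name; Wnt7a lies at chr6:91411354-91411603 (minus strand) and Fzd5 at chr1:64737751-64738000 (minus strand). Capitals mark every CG.
Wnt7a: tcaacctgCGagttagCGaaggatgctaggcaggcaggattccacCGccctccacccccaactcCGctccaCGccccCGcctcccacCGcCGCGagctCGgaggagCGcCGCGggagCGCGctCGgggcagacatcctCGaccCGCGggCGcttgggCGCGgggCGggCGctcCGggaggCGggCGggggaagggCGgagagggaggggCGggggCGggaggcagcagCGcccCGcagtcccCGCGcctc
Fzd5: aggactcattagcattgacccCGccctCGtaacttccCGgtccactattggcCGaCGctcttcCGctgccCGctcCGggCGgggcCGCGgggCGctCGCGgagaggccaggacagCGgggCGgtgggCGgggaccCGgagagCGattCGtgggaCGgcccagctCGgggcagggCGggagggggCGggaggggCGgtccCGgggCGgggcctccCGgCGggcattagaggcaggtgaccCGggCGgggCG
Both windows were dense in CG, with 34 CG and 77.6% G or C for Wnt7a and 32 CG and 76.4% for Fzd5. RefSeq windows matched 39 of the 57 genes, some with more than 1 start, and these 47 windows had a median of 21 CG and 66.4% G or C, beside 6 and 52.4% over all 32851 windows. TAATTA, a core that homeodomain proteins can bind and its own reverse complement, was in 1 of the 47 windows (that of Wnt8b) and in 4.84% of all windows. ATCAAAG, the TCF/LEF core, with its reverse complement CTTTGAT, was in 2 (Wnt11 and 1 start of Wnt5b) and in 3.21% of all windows. A match describes letters only, and its absence from such a window says nothing about binding.

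Among receptors, the Frizzled genes summed to 108 ± 6.59 CPM per kb in the wild type and 118 ± 5.21 in the double knockout, ranges that overlapped. Fzd3, a receptor required for axon tract growth in the forebrain, held 37.3% ± 1.10 and 37.4% ± 2.15 of that sum. Its level was 500.6, 489.6 and 554.3 CPM in wild-type libraries and 558.9, 574.2 and 553.1 in double knockout libraries. Only wild-type replicate 3 reached the double knockout range, and the estimate of 0.13 (SE 0.0628) did not pass edgeR's quasi-likelihood test (adjusted p = 0.448).

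Fzd5, a receptor known from eye and ventral forebrain development, rose in the double knockout. It measured 7.46, 7.13 and 8.42 CPM in the wild type and 10.5, 10.5 and 11 in the double knockout. The 3 double knockout libraries were nearly equal and all lay above the wild type. The fitted log2 fold change came to 0.48 (SE 0.0962, 95% interval 0.26 to 0.69, adjusted p = 0.0399 by edgeR's quasi-likelihood test), or 1.39-fold. The call rested on nearly all libraries: leaving out each in turn gave 0.42 to 0.55, with an edgeR adjusted p of 0.0474 without wild-type replicate 3 and 0.0666 to 0.179 otherwise, and 0.129 with the Y-linked covariate. Gm38058, annotated on the opposite strand over 1233 of its exon bases, had 11, 8 and 4 reads in the wild type and 18, 18 and 46 in the double knockout.

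Fzd8 stood second among Frizzled genes per length over all 6 libraries, but behind Fzd2 in the wild type (20.9 against 22.5 CPM per kb). It measured 111.7, 130.1 and 132.1 CPM in the wild type and 148.9, 149.1 and 167.4 in the double knockout. The groups did not overlap, with wild-type replicate 1 lowest and double knockout replicate 3 highest. The estimate of 0.32 (SE 0.0764) missed the threshold (adjusted p = 0.0796, edgeR's quasi-likelihood test); it passed in 4 of 14 alternative analyses. Its share of the Frizzled sum was 19.4% ± 1.14 in the wild type and 22.1% ± 0.529 in the double knockout, while that of Fzd2 was 20.8% ± 0.568 and 18.2% ± 1.39, neither overlapping between groups. Shares within a sum are not independent of one another and were not tested.

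Fzd9 measured 3.29, 2.13 and 3.87 CPM in wild-type libraries and 5.89, 5.53 and 4.77 in double knockout libraries. All double knockout values were higher, but wild-type replicate 2 stood well below its group. The estimate of 0.80 (SE 0.209) did not pass the test (adjusted p = 0.103, edgeR). The other 6 Frizzled genes and Fzd3 overlapped between groups, with log2 fold changes from -0.07 (Fzd2) to 0.39 (Fzd10).

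Of the co-receptors, Lrp6 and Lrp5, the partners of Frizzled in beta-catenin signalling, had estimates of 0.06 and 0.18, and the kinase-like receptor Ryk 0.04, all with overlapping groups. The interval for Lrp6, -0.05 to 0.16, was among the tightest. Ror2, the tyrosine kinase receptor of Wnt5a, measured 6.86, 5.69 and 5.41 CPM in the wild type and 3.61, 5.24 and 3.89 in the double knockout. The groups were separated by a narrow gap, since double knockout replicate 2 lay just under wild-type replicate 3. The estimate was -0.50 (SE 0.167, adjusted p = 0.222, edgeR's quasi-likelihood test). Its paralog Ror1 was near 0.6 CPM in both groups, at 0.566 ± 0.156 and 0.648 ± 0.0888 (SD, n = 3).

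**Figure D3:**
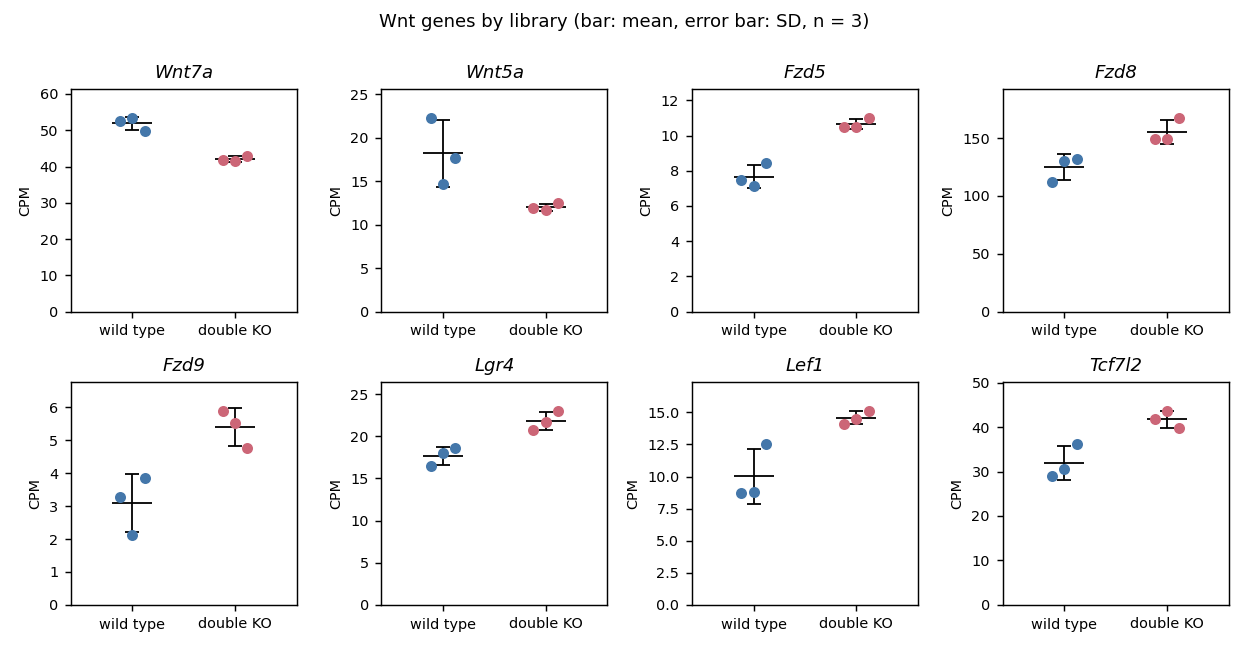
CPM in each library (points) with group mean and SD (bar and error bar, n = 3) for 8 Wnt genes (Wnt7a, Wnt5a, Fzd5, Fzd8, Fzd9, Lgr4, Lef1 and Tcf7l2), each panel with its own axis from 0. Wnt7a and Fzd5 show tight, separate groups, and Wnt5a, Fzd9 and Lef1 show separate groups with a spread-out wild type.

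The R-spondin receptors were represented by Lgr4, with Lgr5 and Lgr6, known as stem cell markers in other tissues, both between 0.249 and 0.461 CPM in every library. Lgr4 measured 16.5, 18.0 and 18.6 CPM in the wild type and 20.8, 21.7 and 23.0 in the double knockout. The groups did not overlap and were about equally tight. The estimate was 0.30 (SE 0.0786, adjusted p = 0.102 in edgeR's quasi-likelihood test). None of the 3 passed edgeR's test, and 1 had an unadjusted p under 0.05, beside 13.3% of all tested genes. DESeq2 called Lgr4, beside 5.3% of all genes to which it gave an adjusted p.

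Among secreted modulators none of 10 tested genes passed edgeR's test, and DESeq2 called 0. At an unadjusted p under 0.05 there were 4 (Dkk1, Dkk2, Rspo1 and Sfrp5), where the share of all tested genes was 13.3%. Sfrp1 measured 186.3, 204.0 and 200.4 CPM in the wild type and 214.6, 184.4 and 237.0 in the double knockout. The double knockout libraries spanned the wild-type range, and the estimate of 0.11 did not pass (adjusted p = 0.703, edgeR). Of the summed level per length of Sfrp1, Sfrp2, Sfrp4 and Sfrp5, Sfrp1 made up 82.1% ± 0.362 in the wild type and 83.6% ± 2.27 in the double knockout. Sfrp2, a related decoy, was tight at 18.9 ± 0.362 and 17.6 ± 1.04 CPM (log2 fold change -0.10, adjusted p = 0.661, edgeR). The other tested members, Dkk3, Rspo3 and Sfrp4, overlapped between groups.

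The Dickkopf genes Dkk1 and Dkk2, whose proteins bind Lrp5 and Lrp6, were low, and their estimates had opposite signs. Dkk1 measured 0.171, 0.156 and 0.0624 CPM in the wild type and 0.524, 0.399 and 0.259 in the double knockout. Dkk2 measured 0.939, 0.809 and 0.811 CPM in the wild type and 0.585, 0.364 and 0.519 in the double knockout. Neither gene's groups overlapped, and at these levels the intervals were wide, 0.54 to 2.65 for Dkk1 and -1.36 to -0.22 for Dkk2, and the adjusted p-values were 0.148 and 0.187 (edgeR). Sfrp5, also low, ranged from 0.171 to 0.451 CPM in the wild type and from 0.478 to 0.577 in the double knockout (log2 fold change 0.88, adjusted p = 0.350, edgeR).

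At the nuclear end of the pathway, none of 6 tested genes passed edgeR's test, and 2 had an unadjusted p under 0.05, beside 13.3% of all tested genes. DESeq2 called 2, Tcf7l2 and Lef1, beside 5.3% of all genes to which it gave an adjusted p. Tcf7l1, mainly a repressor of Wnt targets, was the highest per length over all 6 libraries (7.12 CPM per kb, beside 6.89 for Nkd1), although Nkd1 was higher in the wild type (7.34 against 6.44). Tcf7l1 measured 21.3, 28.4 and 26.1 CPM in the wild type and 25.9, 27.7 and 38.2 in the double knockout. Its groups overlapped, with double knockout replicate 3 far above the others (estimate 0.28, SE 0.157, adjusted p = 0.528, edgeR's quasi-likelihood test). Tcf7l2 measured 28.9, 30.6 and 36.1 CPM in the wild type and 41.9, 43.6 and 39.7 in the double knockout. Its groups were separate, and the estimate of 0.39 (SE 0.0885) came near the threshold (adjusted p = 0.0638, edgeR), passing it in 5 of 14 alternative analyses. Without double knockout replicate 3 the estimate was 0.43 (adjusted p = 0.0472, edgeR), and without wild-type replicate 3 it was 0.49 (adjusted p = 0.0278, edgeR). Tcf7l2 is also a marker of thalamic neurons. The diencephalic marker sum was raised in double knockout replicates 1 and 2 alone. Gbx2 of that list, a gene of the developing thalamus, measured 5.67, 7.08 and 5.69 CPM in the wild type and 9.54, 8.45 and 15.7 in the double knockout, higher in all 3 (log2 fold change 0.87, adjusted p = 0.0990, edgeR). The other tested markers of the list overlapped between groups. Lhx9, Barhl2 and Sim1 had their lowest level of all libraries in double knockout replicate 3 (31.8, 7.64 and 2.96 CPM). The part of these markers in the Tcf7l2 result was not tested.

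Lef1, a factor that is itself a common Wnt target, measured 8.70, 8.82 and 12.5 CPM in wild-type libraries and 14.1, 14.5 and 15.1 in double knockout libraries. The double knockout libraries were tight and higher, and wild-type replicate 3 stood between the groups. The estimate was 0.54 (SE 0.142, adjusted p = 0.109, edgeR's quasi-likelihood test), and an opposite-strand transcript is annotated over 1208 of its exon bases. Axin2, the most used readout of beta-catenin signalling, measured 29.3, 30.1 and 31.3 CPM in the wild type and 32.6, 33.8 and 32.6 in the double knockout. The groups were separate by a small step of 0.13 (adjusted p = 0.409, edgeR), with an interval from -0.01 to 0.26 on the log2 scale. Nkd1, a feedback inhibitor that binds Dishevelled, measured 33.6, 32.7 and 34.0 CPM in the wild type and 26.8, 24 and 37.2 in the double knockout. Its groups overlapped through replicate 3 alone, and leaving that library out moved the estimate from -0.19 (adjusted p = 0.676, edgeR's quasi-likelihood test) to -0.39 (adjusted p = 0.0241, edgeR). The TCF/LEF sum per length was 13 ± 1.36 CPM per kb in the wild type and 16.1 ± 1.70 in the double knockout. The lowest double knockout library (14.7) was above the highest wild-type library (14.1), but the sum was not tested.

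The largest spread between libraries of a group was in low genes. The biological coefficient of variation (BCV), edgeR's estimate of the replicate spread, had a median of 14.2% over the 44 genes and 13.4% over all tested genes. It was 87.0% for Wnt8b, 61.9% for Rspo2, 49.8% for Wnt9b, 49.3% for Rspo1 and 36.7% for Wnt9a, placing each above at least 95.8% of tested genes. The tightest were Lrp6 at 5.98% and Wnt7a at 6.66%.

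Wnt8b, a ligand of the dorsomedial telencephalon, had 51, 1 and 13 reads in the wild type and 40, 19 and 4 in the double knockout. Rspo1, a ligand of the Lgr receptors, measured 0.495, 0.218 and 0.592 CPM in the wild type and 1.73, 1.46 and 0.288 in the double knockout. Rspo2, another R-spondin, was 1.08, 0.591 and 0.764 CPM in the wild type and 1.74, 0.989 and 0.0865 in the double knockout. In the double knockout these genes were highest in replicate 1 and lowest in replicate 3, and in the wild type all 3 were lowest in replicate 2. The summed level of 4 cortical hem markers (Lmx1a, Bmp7, Msx1 and Bmp4) was 3.74, 1.70 and 2.39 CPM in the wild type and 4.42, 3.09 and 2.02 in the double knockout, so it too was lowest in wild-type replicate 2 and, within the double knockout, highest in replicate 1 and lowest in replicate 3. Of the more abundant hem markers, Bmp7 had 1.6, 0.933 and 2.10 CPM in the wild type and 2.94, 2.51 and 1.72 in the double knockout. Lmx1a had 1.04, 0.685 and 0.125 and then 1.29, 0.278 and 0.187. Wnt2b and Rspo3, also genes of the hem, followed this order only in part. Within the double knockout both were highest in replicate 2 (2.5 and 6.68 CPM) and lowest in replicate 3 (1.85 and 3.62 CPM). Within the wild type Wnt2b was lowest in replicate 1 (1.37 CPM) and Rspo3 in replicate 2 (5.41 CPM). The diencephalic marker sum was also lowest in double knockout replicate 3 (59.5 CPM), through Lhx9, Barhl2 and Sim1, while Gbx2, Irx3 and Barhl1 of the same list were highest there among the double knockout libraries. The part of these markers in the result was not tested. Rspo1 shows what 1 library decides: its log2 fold change was 1.40 (SE 0.610, adjusted p = 0.371) in edgeR's quasi-likelihood test with all libraries and 1.88 (adjusted p = 0.0299, edgeR) without double knockout replicate 3.

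**Figure D4:**
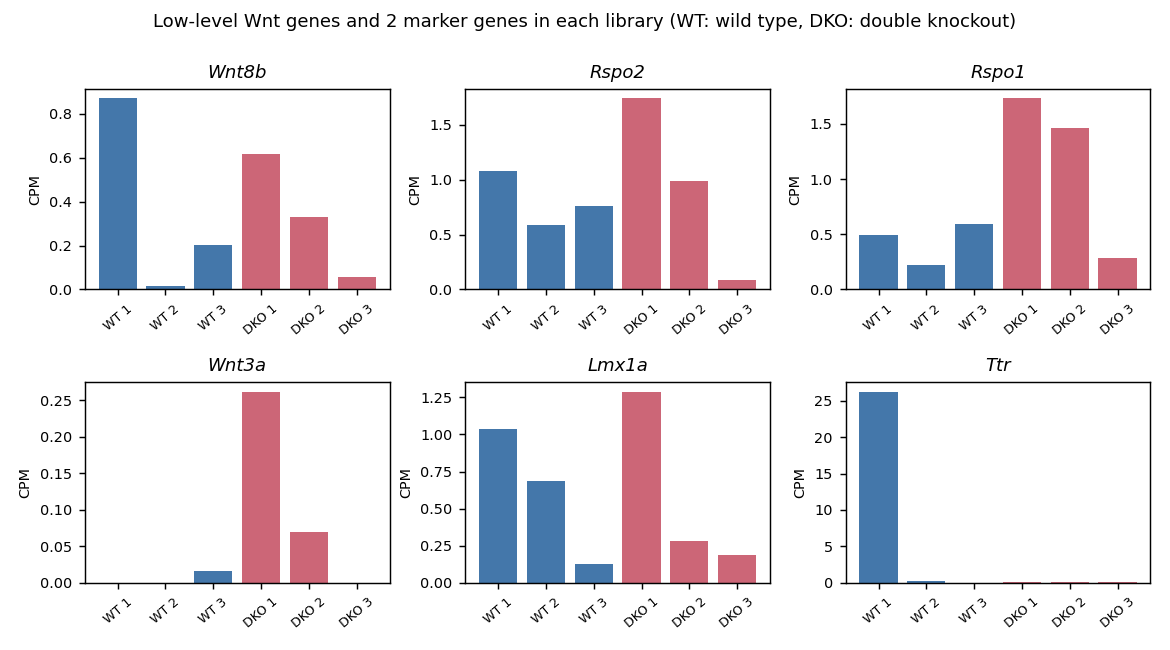
CPM in each of the 6 libraries (bars) for 4 low Wnt genes that varied between replicates (Wnt8b, Rspo2, Rspo1 and Wnt3a) and for 2 marker genes, Lmx1a of the cortical hem and Ttr of the choroid plexus. Wnt8b, Rspo1 and Rspo2 are highest in double knockout replicate 1 and lowest in replicate 3 of that group, and Ttr stands at 26.3 CPM in wild-type replicate 1 and near 0 elsewhere.

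The window upstream of Wnt8b is shown because it was the only one of the 47 with a TAATTA. It lies at chr19:44493222-44493471 (plus strand, RefSeq on GRCm38.p6), and capitals mark that motif.
Wnt8b: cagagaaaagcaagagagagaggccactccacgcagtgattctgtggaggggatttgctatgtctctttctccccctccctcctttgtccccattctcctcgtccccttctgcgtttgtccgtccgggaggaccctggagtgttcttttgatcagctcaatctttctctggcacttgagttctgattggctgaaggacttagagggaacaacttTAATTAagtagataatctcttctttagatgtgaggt
It held 5 CG and 48.4% G or C, so it differed in composition from the windows of Wnt7a and Fzd5 above.

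Other genes of the pathway were taken from a list of 58, of which 56 were tested. Of these, 5 passed edgeR's test (8.93%, beside 2.68% of all tested genes), with Gpc4 and Tnfrsf19 higher and Wls, Dact1 and Myc lower. At an unadjusted p under 0.05 there were 17, with 6 higher and 11 lower, where the share of all tested genes was 13.3%, and the median log2 fold change was -0.03.

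Both secretion genes on the list, Wls and Porcn, were lower in every double knockout library than in any wild-type library, as were 10.2% of all tested genes. Wls, the carrier that takes Wnt proteins to the cell surface, measured 18.0, 14.0 and 14.1 CPM in the wild type and 8.54, 8.46 and 10.9 in the double knockout. The groups did not overlap, but the gap between them was smaller than the wild-type spread. The log2 fold change was -0.72 (SE 0.139, adjusted p = 0.0323, edgeR's quasi-likelihood test), though every omission of a library other than double knockout replicate 3 ended the call (adjusted p 0.0635 to 0.122, edgeR). Porcn, the acyltransferase that lipidates Wnt proteins, measured 24.3, 20.4 and 21.5 CPM in the wild type and 17.6, 17.0 and 15.3 in the double knockout. Its estimate of -0.41 (SE 0.0916) did not pass (adjusted p = 0.0600, edgeR).

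Dact1, a Dishevelled-binding modulator, fell from 72.1, 70.4 and 69.2 CPM in the wild type to 49.2, 50.0 and 45.4 in the double knockout (log2 fold change -0.55, SE 0.0551, adjusted p = 0.00134, edgeR's quasi-likelihood test). An opposite-strand transcript, 4930474H06Rik, is annotated over 1313 of its exon bases. It was 1 of 9 Dishevelled genes and partners to pass. Myc, a target gene in many tissues that answers to other signals too, fell from 27.1, 24.2 and 25.5 CPM to 13.7, 15.7 and 14.7 (log2 fold change -0.80, SE 0.0819, adjusted p = 0.00142, edgeR). Both were separated by several times the spread within groups.

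At the cell surface, Gpc4, a glypican that binds Wnt and other growth factors, rose from 73.4, 77.1 and 81.0 CPM to 118.2, 114.1 and 132.5 (log2 fold change 0.66, SE 0.0667, adjusted p = 0.00141, edgeR's quasi-likelihood test). Tnfrsf19, a receptor known as a Wnt target, rose from 20, 21.4 and 22.5 CPM to 29.6, 30.9 and 26.2 (log2 fold change 0.44, SE 0.0838, adjusted p = 0.0308, edgeR). Of the 6 omissions of a library, only that of double knockout replicate 3 kept the Tnfrsf19 call (adjusted p = 0.00934, edgeR), the others giving 0.0698 to 0.133. Dact1, Myc and Gpc4 passed in all 14 alternative analyses, Wls in 9 and Tnfrsf19 in 7.

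Among the scaffold, destruction complex and nuclear cofactor genes, log2 fold changes lay between -0.22 and 0.23. The groups did not overlap for 4 of 10 scaffold and 5 of 10 cofactor genes, beside 19.5% of all tested genes. None of the 10 scaffold and destruction complex genes passed edgeR's test or DESeq2's. At an unadjusted p under 0.05 there were 3 (Apc2, Csnk1e and Gsk3b), where the share of all tested genes was 13.3%. Ctnnb1, which encodes beta-catenin, had a log2 fold change of 0.08 (SE 0.0586). Among 10 nuclear cofactors edgeR called none, and 4 had an unadjusted p under 0.05 (Bcl9, Pygo1, Tle1 and Tle4), beside the same 13.3%. DESeq2 called the corepressor gene Tle1 (log2 fold change 0.21 and adjusted p = 0.0737 in edgeR), beside 5.3% of all genes to which it gave an adjusted p. Of the 8 planar polarity genes, which act with Frizzled in orienting cells, none passed in edgeR or DESeq2 and none had an unadjusted p under 0.05, with estimates from -0.21 (Prickle1) to 0.09 (Celsr2).

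**Figure D5:**
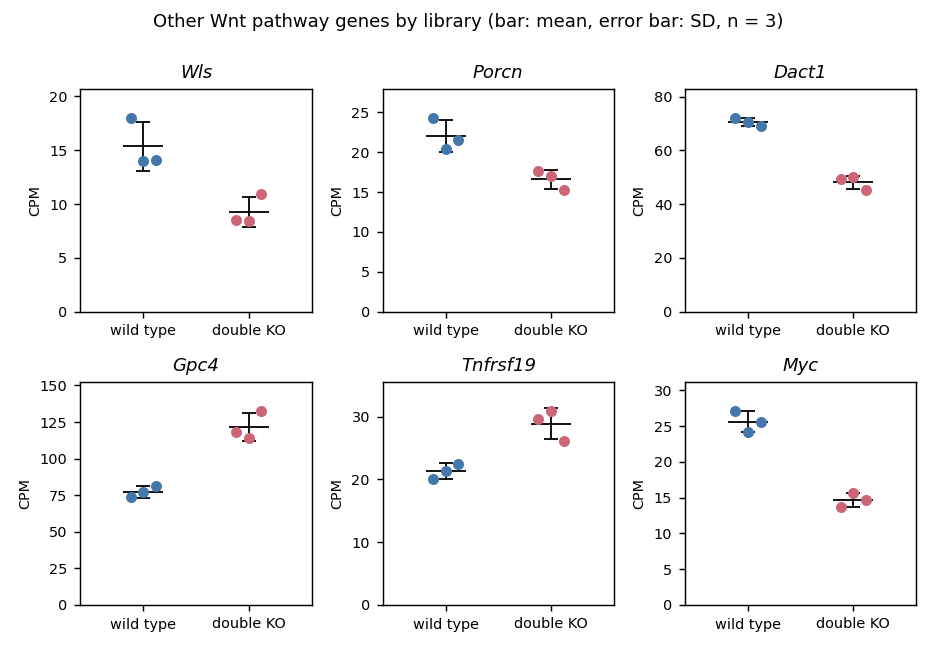
CPM in each library (points) with group mean and SD (bar and error bar, n = 3) for 6 other pathway genes, axes from 0. Wls, Porcn, Dact1 and Myc are lower and Gpc4 and Tnfrsf19 higher in every double knockout library than in any wild-type library, and all but Porcn passed the test.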

How the data were processed

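Total RNA was sequenced in 3 wild-type and 3 double knockout libraries, made with a stranded, ribosomal-RNA-depleted kit per the labels' protocols. The authors deposited whole-number counts per gene, not normalised, made with featureCounts on GRCm39 per the submitters' processing notes. The aligner, annotation release, versions, and strand and multi-mapping settings are not given in the sources used here. Groups and replicate numbers came from the titles.

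From the deposited counts, genes were filtered with filterByExpr (minimum count 10, minimum total 15), scaled by TMM and tested with edgeR 4.0.16 (quasi-likelihood test, Benjamini-Hochberg adjustment over 23628 genes, threshold 0.05) in R 4.3.3. The method was tested on simulated data. Standard errors are the coefficient divided by the square root of F. CPM values are TMM-normalised. Exon lengths, overlaps and gene neighbours came from GENCODE M21, which held 94.1% of the identifiers and all 57 Wnt genes and may not be the authors' release. Floors cover counting error only, since there were no molecular identifiers.

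Members and lists were chosen with earlier results of these data known. Some marker genes on the lists are not reported here and were left out of the sums. Per-library values follow a rule: genes called, the highest per length of each role, and genes at a mean of at least 1 CPM with separate groups and a log2 fold change of at least 0.5 in size; called genes of the pathway list are named. The other genes given per library, such as Wnt3a, Wnt5b, Fzd8, Ror2, Dkk1, Dkk2, Rspo1, Rspo2, Wnt8b, Tcf7l2, Axin2, Nkd1 and Porcn, were named after their values were seen. Alternatives were other scalings, DESeq2 1.42.0, limma-voom (limma 3.58.1), other filters, a replicate block, a Y-linked covariate and leaving out each library.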

Additional observations from a re-analysis of the deposited data

How the results depend on the processing

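No gene among the 25 followed changed sign in those of the 14 alternatives that fitted it, and no direction of the median reversed. Dkk1, Dkk2 and Rspo1 were fitted in 13. Many of the 25 were named after their values were seen, so their steady sign is no separate support. Genes of wide spread such as Wnt8b and Rspo2 were not followed. The edgeR count of 2 Wnt genes became 4 with total count scaling (3 higher; 2.73% of all genes), 7 with no filter on low counts (5 higher; 2.31%), 8 with DESeq2 (6 higher: Fzd5, Fzd8, Fzd9, Lef1, Lgr4 and Tcf7l2; lower: Wnt5a and Wnt7a), and 0 with the Y-linked covariate (1.52% of all genes; 11 Wnt genes at an unadjusted p under 0.05). Leaving out 1 library gave 0 to 4. The count was 0 without wild-type replicate 1 (1.27% of all genes), double knockout replicate 1 (1.57%) or double knockout replicate 2 (1.66%). It was 4 without double knockout replicate 3 (3.09% of all genes), with Nkd1, Rspo1, Tcf7l2 and Wnt7a called. The 5 other pathway genes became 3 to 6 when 1 library was left out, beside 1.27% to 3.09% of all genes. The 634 calls over all genes became 1134 with DESeq2, 358 with the Y-linked covariate, and 309 to 749 when 1 library was left out. Of all calls, 50% were higher in the double knockout with TMM and 60.4% with total count scaling. The median log2 fold change of the Wnt genes, 0.11, was 0.14 with total count scaling (0.03 for all genes) and 0.09 to 0.14 when 1 library was left out. The cause of these differences was not tested.

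The labels give both groups replicate numbers 1 to 3 without saying what they share. Deviations of same-numbered libraries correlated at -0.247, -0.0264 and 0.0107 over genes averaging 1 CPM or more, so the numbers were not taken as pairs. With the replicate number as a block, 3 Wnt genes (Fzd8 added, adjusted p = 0.0279, edgeR), 4 other pathway genes and 690 genes in all were called. Genes under about 1 CPM, such as Dkk1 and Wnt8b, were limited by depth and by their spread.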

Other observations

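Adgra2 and Reck, the endothelial partners of Wnt7a and Wnt7b, did not pass edgeR's quasi-likelihood test (log2 fold change 0.09, SE 0.119, adjusted p = 0.838, and 0.16, SE 0.0947, adjusted p = 0.541). The summed level of 8 endothelial markers was 128 to 147 CPM in wild-type libraries and 134 to 156 in double knockout libraries, and none of the 8 passed the test. Ndp, the Norrin ligand that acts through Fzd4 and Tspan12, measured 2.87, 3 and 2.82 CPM in the wild type and 4.28, 4.18 and 3.34 in the double knockout (log2 fold change 0.44, adjusted p = 0.186, edgeR). Sostdc1, a secreted inhibitor that is also expressed in choroid plexus, measured 1.09 CPM in wild-type replicate 1, the library with Ttr, and between 0.104 and 0.187 in the other 5.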
